A study of Mus musculus with 12 samples.

Results

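Langerin (Cd207), the chains and invariant chain of MHC class II (H2-Aa, H2-Ab1, H2-Eb1, Cd74), the class II coactivator Ciita and the leukocyte genes Ptprc and Coro1a were followed in RNA of sorted hair follicle stem cells (HFSCs). These 8 genes were chosen because Cd207 and H2-Ab1 rose in the Eed iKO libraries, so their values in that comparison are given as a description without a test. All 8 were found by symbol among the 17885 genes of the Eed iKO table and among the 21915 genes of the hair cycle table. The Eed iKO table holds 3 control and 3 Eed iKO libraries from mice of 70 days on C57BL/6J. Eed iKO mice (K15-CrePGR: Eed fl/fl, labelled Eed -/-) carry floxed alleles of Eed, a PRC2 subunit, and a Cre driven by the K15 promoter, which is active in keratinocytes of the bulge. RU-486 at 10 mg/ml, in 100 µl, was put on the shaved back daily for 7 days, from day 50 in the 70-day-old mice of the study, while controls, labelled wildtype, received ethanol, so genotype and RU-486 cannot be told apart between the groups. The hair cycle table holds 3 anagen (P28 to P30) and 3 telogen (P50 to P52) libraries of wild type C57BL/6J mice. Every library came from cells gated for CD34, EpCAM and high α6-integrin and against Sca1, without an antibody to CD45 in the stain, and both sexes were used. Replicates are separate samples in the labels and biological replicates from several litters in the methods of the study.

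Langerhans cells are the dendritic cells of the epidermis, seated among keratinocytes and in the upper follicle, and they carry langerin, CD45, EpCAM and surface MHC class II. Class II molecules are pairs of an alpha and a beta chain that are held by the invariant chain until a peptide is loaded with the help of H2-DM and endosomal proteases. CIITA binds no DNA itself and drives these genes through RFX factors on the X box and NF-Y on the Y box of their promoters. Keratinocytes can also make class II after exposure to interferon gamma. C57BL/6 mice lack a working I-E alpha chain, so that I-A, made of the products of H2-Aa and H2-Ab1, is their class II molecule at the cell surface.

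The class II promoters are shown first because they are the place where Ciita acts and because the 3 chain genes lie next to each other. In GRCm38, H2-Ab1 (ENSMUSG00000073421.5) spans chr17:34257689-34269419 on the plus strand, H2-Aa (ENSMUSG00000036594.14) chr17:34282744-34287823 on the minus strand and H2-Eb1 (ENSMUSG00000060586.10) chr17:34305867-34316674 on the plus strand. There are 13324 bases between H2-Ab1 and H2-Aa and 18043 between H2-Aa and H2-Eb1. The other genes are spread over the genome, with Cd207 (ENSMUSG00000034783.7) at chr6:83671215-83677857 (minus), Coro1a (ENSMUSG00000030707.15) at chr7:126699773-126707787 (minus) and Ciita (ENSMUSG00000022504.10) at chr16:10480059-10528418 (plus). Cd74 has the identifier ENSMUSG00000024610.14, and Ptprc (ENSMUSG00000026395.16) lies at chr1:138062861-138175708 (minus). RefSeq promoter windows (GRCm38.p6, 250 bases before to 50 after the start) matched 5 of the 8 genes. They were searched on both strands for an X box motif, with any base allowed at the third and the seventh position, and a Y box motif (TGATTGG), which do not overlap in any window shown. The windows of H2-Aa (chr17:34287774-34288073, minus strand) and H2-Eb1 (chr17:34305617-34305916, plus strand) are given with that of the peptide loading gene H2-DMb1 (chr17:34152941-34153240, plus strand), each 5′ to 3′ on its strand with the matched letters in capitals.
H2-Aa: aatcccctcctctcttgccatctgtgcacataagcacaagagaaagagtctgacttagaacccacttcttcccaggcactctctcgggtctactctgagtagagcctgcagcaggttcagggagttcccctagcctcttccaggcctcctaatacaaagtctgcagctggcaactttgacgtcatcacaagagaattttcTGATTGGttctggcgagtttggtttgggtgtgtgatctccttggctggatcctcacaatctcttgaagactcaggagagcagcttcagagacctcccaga
H2-Eb1: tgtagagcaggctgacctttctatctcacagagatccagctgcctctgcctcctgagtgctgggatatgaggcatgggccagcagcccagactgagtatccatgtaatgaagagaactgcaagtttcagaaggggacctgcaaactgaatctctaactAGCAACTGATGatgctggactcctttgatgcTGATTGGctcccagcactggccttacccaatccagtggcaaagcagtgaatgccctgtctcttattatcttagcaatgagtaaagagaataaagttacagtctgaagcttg
H2-DMb1: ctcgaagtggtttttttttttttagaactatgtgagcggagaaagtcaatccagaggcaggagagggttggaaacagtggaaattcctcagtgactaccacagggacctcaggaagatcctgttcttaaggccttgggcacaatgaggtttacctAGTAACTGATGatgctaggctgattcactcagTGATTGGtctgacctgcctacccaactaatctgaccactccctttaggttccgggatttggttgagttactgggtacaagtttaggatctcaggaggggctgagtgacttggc

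H2-Eb1 holds the X box letters from base -92 and the Y box letters from base -61 of its start, and H2-DMb1 from -95 and -63. H2-Aa holds the Y box letters from base -50 and no match to the X box letters. Of 32851 RefSeq promoter windows, 98 (0.298%) hold the X box letters, 2568 (7.82%) the Y box letters and 8 (0.0244%) both. The windows of Cd207, Ptprc and Coro1a hold neither, and nor do those of the loading gene H2-DMa, while H2-DMb2 holds the Y box letters alone and H2-Eb2 holds both. These matches describe letters only.

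All 8 genes were lowly expressed in every library. Scaled to transcript length and to a total of 1000000 per library, so that genes can be compared within a table, their levels lay between 0 and 16.3 in the libraries of the Eed iKO table and, for the hair cycle table, between 0 and 50.7. In the Eed iKO table the median level over the 6 libraries ran from 7.76 for Cd74, 3.91 for H2-Aa and 3.69 for H2-Ab1 through 1.59 for Coro1a, 1.55 for H2-Eb1, 1.00 for Ptprc and 0.894 for Ciita to 0.259 for Cd207. In the hair cycle table the order was H2-Ab1 at 9.57, H2-Aa at 2.97, Ptprc at 2.65, Ciita at 1.49, Cd207 at 1.46, Cd74 at 1.35, Coro1a at 1.17 and H2-Eb1 at 0.176. Neighbours in both orders overlap in their ranges over libraries. Krt15, a keratin of the bulge, stood at 21640 or more on this scale in all 12 libraries, as the plot of levels per length shows.

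**Figure D1:**
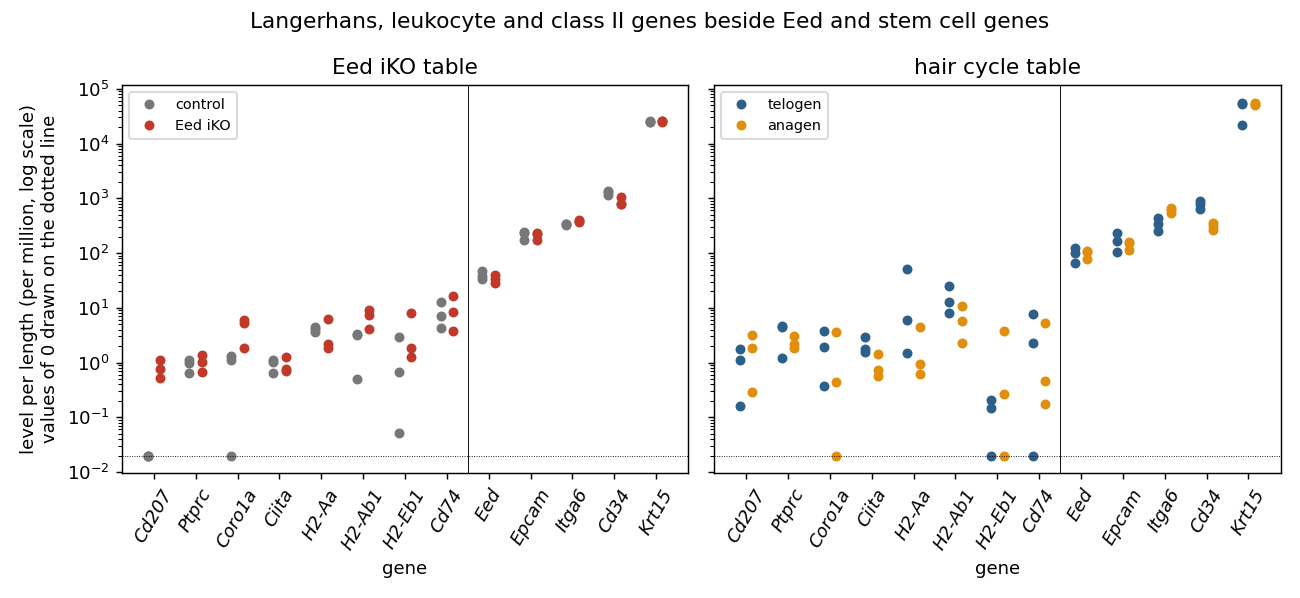
Level scaled to transcript length and a total of 1000000 (log axis) of the 8 genes, left of the line, and of Eed and 4 genes of the sorted cells, right of it, in each library of the Eed iKO table and of the hair cycle table. Each point is 1 library and values of 0 sit on the dotted line; the 8 genes reach at most 16.3 in the first table and 50.7 in the second, below the genes of the sorted cells.

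The libraries labelled Eed iKO were checked first by Eed itself. Its normalized counts (read counts after division by a library-specific size factor) were 1084, 1249 and 950.2 in control replicates 1 to 3 and 933.3, 1361 and 1001 in Eed iKO replicates 1 to 3, a log2 difference of -0.01 (SE 0.22). The Eed mRNA level therefore did not separate the groups, and a value per gene does not resolve the floxed exons. Cd34, Itga6 and Epcam, the genes of the sort antigens, had control means well above every gene followed here, with Cd34 at 37765 to 47502 in control and 31535 to 38699 in the libraries labelled Eed iKO.

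Cd207, the langerin gene and the defining marker among the 8, was at 0 in all 3 control libraries. It was at 18.3, 13.3 and 23.7 normalized counts in the libraries labelled Eed iKO, which are 17, 10 and 24 reads. The groups did not overlap, and against a floor of 3 reads per control library the mean was at least 6.87-fold higher. The 51 reads over 3 libraries of at least 33269583 reads each make it the lowest of the 8 genes here.

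H2-Ab1, the beta chain of I-A, was at 8.33, 48.7 and 54.4 normalized counts in control and at 139.8, 83.7 and 156.2 in the libraries labelled Eed iKO. All 3 of the latter lay above all 3 controls, and the log2 difference was 2.06 (SE 0.74). H2-Aa, the alpha chain that pairs with it, was at 67.3, 52.0 and 64.4 in control and at 110.8, 34.5 and 34.6 in the libraries labelled Eed iKO. Here 1 library of the latter was above and the others were below every control, with a log2 difference of -0.25 (SE 0.62). The ratio of H2-Aa to H2-Ab1 normalized counts was 8.08, 1.07 and 1.18 in control and 0.792, 0.413 and 0.222 in the libraries labelled Eed iKO. Since H2-Ab1 was chosen for its rise, the fall of this ratio is part of that choice.

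H2-Eb1, the I-E beta chain, was at 15.3, 1.08 and 68.0 in control and 206.4, 35.9 and 43.5 in the libraries labelled Eed iKO. The groups overlapped, and the log2 difference of 2.40 (SE 1.20) fell to 1.06 without control replicate 2, which held a single read, and reached 3.58 without control replicate 3. Cd74, the invariant chain, was at 134.6, 75.8 and 252.1 in control and 358.1, 201.9 and 76.1 in the libraries labelled Eed iKO, with overlapping groups and a log2 difference of 0.36 (SE 0.62). Ciita, the coactivator of these genes, was at 52.7, 84.5 and 83.4 and at 117.2, 78.4 and 60.3, a log2 difference of 0.19 (SE 0.52). For Cd74 and Ciita, as for H2-Aa, Eed iKO replicate 1 was the highest of the 6 libraries. Without it the log2 difference was -0.14 for Cd74 and -0.06 for Ciita.

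Ptprc, which encodes CD45 of all nucleated blood cells, was at 45.1, 63.9 and 78.0 in control and at 106.4, 58.4 and 73.2 in the libraries labelled Eed iKO, with a log2 difference of 0.33 (SE 0.53). It was thus present in every library, also in those without a Cd207 read. Coro1a, an actin-binding protein of leukocytes, was at 0, 29.2 and 26.3 in control and at 164.5, 54.4 and 131.5 in the libraries labelled Eed iKO. The groups did not overlap, and the log2 difference of 3.51 (SE 1.21) was 1.89 without control replicate 1, the library at 0. Fewer cells of a type and less RNA per cell cannot be told apart in these bulk samples.

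**Figure D2:**
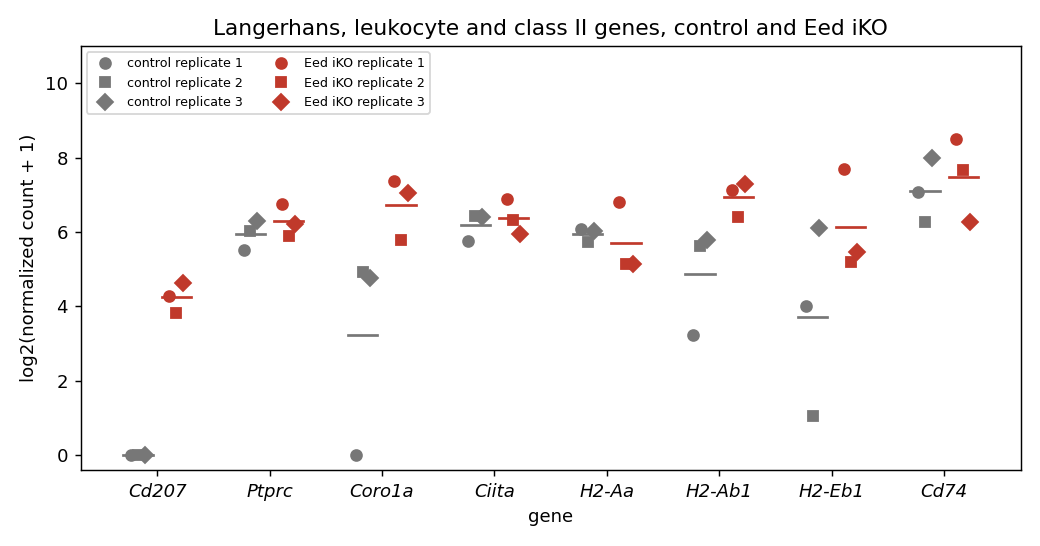
Log2(normalized count + 1) of the 8 genes in the 3 control and 3 Eed iKO libraries, with a point for each library, its shape giving the replicate number, and a bar at the mean of each group. Cd207, H2-Ab1 and Coro1a have all red points above all grey points, while for the other 5 genes the groups overlap.

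In all, 3 of the 8 genes (Cd207, H2-Ab1 and Coro1a) had non-overlapping groups with the libraries labelled Eed iKO higher, and none had them lower. Over all 15008 genes tested, 10.2% had non-overlapping groups in that direction, and nothing is read from the count because the genes were chosen on this contrast. The median log2 difference of the 8 was 1.21, beside -0.001 over all genes. It too is part of the choice, and nothing is read from it. Eed iKO replicate 1 was the highest library for 6 of the 8 genes and Eed iKO replicate 3 for the other 2. Out of 1000000 normalized counts, the sum of the 8 was 8.17, 9.07 and 15.0 in control and 29.4, 12.7 and 14.7 in the libraries labelled Eed iKO, so the groups overlapped and replicate 1 stood apart.

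The spread within groups differed between the genes. In control, the coefficient of variation was 125% for H2-Eb1, where the counting error of its reads is 17.8% and the median of 1093 genes of similar mean (within 1.5-fold) was 57.3%. For H2-Aa in control it was 13.3%, beside a counting error of 12.1%. In the libraries labelled Eed iKO it was 73.4% for H2-Aa and 66.6% for Cd74, beside 43.7% and 29.3% for genes of similar mean, and 31.0% for Ptprc and 34.1% for Ciita, below the 41.3% and 39.9% of theirs. H2-Aa and Cd74 were thus more uneven between these 3 libraries than genes of their level, and Ptprc and Ciita were not.

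The rest of the class II pathway was read from lists. A gene was called where its log2 difference in limma was beyond 1.5 with an unadjusted p under 0.05, which held for 263 of the 15008 genes (1.75%; 0.826% with the libraries labelled Eed iKO higher and 0.926% with them lower), and 4 genes (0.0267%) had an adjusted p under 0.05 by limma, beside 5 by edgeR and 673 by DESeq2 on the recovered reads. Of the class II chain, loading and protease genes that are not among the 8, 5 of 10 were tested and none was called, with a median log2 difference of 0.04. H2-DMa, H2-DMb1 and H2-DMb2 encode the peptide loading molecule, and Ctsl and Lgmn encode proteases that trim the invariant chain and antigens. H2-DMb1, which shares the promoter letters of H2-Eb1, was at 437.1, 500.4 and 194 normalized counts in control and 325.8, 525.9 and 360.9 in the libraries labelled Eed iKO, with a log2 difference of 0.18 (95% interval -0.69 to 1.05). Of the 7 promoter factors besides Ciita, all were tested and none was called, with a median of 0.16. Rfx5, an RFX subunit, was at 625.1, 1349 and 1356 in control and 1041, 1089 and 923.4 in the libraries labelled Eed iKO. Of 12 tested interferon gamma response genes, 1 was called, the chemokine gene Cxcl10, at 64.5, 307.6 and 115.2 in control and 72.0, 61.1 and 9.89 in the libraries labelled Eed iKO (log2 difference -1.86, adjusted p = 0.332 by limma). This call was lost without control replicate 2 (-1.25), control replicate 3 (-1.96) or Eed iKO replicate 3 (-0.98), and also with a pseudocount of 0.1 (-1.90), without the filter (-1.86) and with edgeR (-1.77).

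Of the 17 other Langerhans and dendritic cell genes, 15 were in the Eed iKO table, 10 were tested and 1 was called. This was Csf1r, the receptor on which Langerhans cells depend, at 1.39, 0 and 2.72 normalized counts in control and 21.5, 23.9 and 12.9 in the libraries labelled Eed iKO, a log2 difference of 3.26 (adjusted p = 0.184 by limma). All 3 of the latter were above all controls, and 15.1% of the exon bases of Csf1r are shared with the antisense gene Hmgxb3. Csf1r passed the filter on low values only through the libraries labelled Eed iKO, so the filter favoured a call in that direction. The summed level of the 15 genes was 10456 to 16280 in control and 16404 to 19692 in the libraries labelled Eed iKO. That sum rests mainly on Id2, Sirpa and Mfge8, which keratinocytes also express, and Id2 alone was at 4588 to 7429 in control and 8798 to 9944 in the libraries labelled Eed iKO. Spi1, the PU.1 gene that leukocytes of this lineage need, was at 0 in 5 of the 6 libraries and at 13.8 in Eed iKO replicate 3. Mpeg1 was at 0 in all controls and at 0, 12.0 and 13.8 in the libraries labelled Eed iKO. Besides Csf1r, tested genes had log2 differences of -0.69 (Itgam), -0.38 (Flt3), -0.01 (Cd86) and 0.002 (Runx3). Those of Sirpa (0.22), Ly75 (0.25), Zbtb46 (0.32), Mfge8 (0.40) and Id2 (0.58) were higher. The median of the 10 tested genes was 0.24, so the list did not share a direction. Itgax and Irf8 were not in the Eed iKO table.

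Of the 20 other pan-leukocyte genes, 8 were tested and none was called. Their summed level was 993.3 to 1453 in control and 1274 to 1846 in the libraries labelled Eed iKO, with 5 of the 19 in the table at 0 in every control. Ptpn6 was the largest part of that sum, at 461.4 to 859.6 in control and 897.7 to 1271 in the libraries labelled Eed iKO. The other 18 summed to 423.4 to 657 in control and 280.8 to 575.3 in the libraries labelled Eed iKO. Tyrobp was among the 5 and was at 15.1, 2.66 and 2.97 in the libraries labelled Eed iKO, above every control. Rac2 and Lcp1 had non-overlapping groups in the other direction, Rac2 at 62.4, 61.7 and 68.9 in control and 36.6, 13.3 and 34.6 in the libraries labelled Eed iKO, and Lcp1 at 140.8, 143.0 and 107.0 against 105.4, 83.7 and 74.1. Of the 19, 2 thus had non-overlapping groups with the libraries labelled Eed iKO higher and 2 with them lower. Over all genes tested these shares were 10.2% and 10%, so nothing is read from these counts. Of the macrophage genes, Lyz2 was at 0 in every control and at 55.9, 65.1 and 0 in the libraries labelled Eed iKO, at least 15.0-fold higher in the mean, though Eed iKO replicate 3, with the most Cd207, held no read of it. Cd14 of the same list went the other way, at 148.5, 111.6 and 133.3 in control and 39.8, 87.6 and 39.5 in the libraries labelled Eed iKO (log2 difference -1.32, adjusted p = 0.276 by limma). The summed level of the 6 macrophage genes in the table was 320.5 to 871.4 in control and 321.5 to 741.5 in the libraries labelled Eed iKO. The T cell sum (8 genes) was 429.8 to 787.4 and 661.3 to 887.1, the B cell sum (2 genes) 18.4 to 47.1 and 25.2 to 58.1, the neutrophil sum (3 genes) 39.0 to 95.7 and 20.4 to 42.5 and the mast cell sum (2 genes) 0.694 to 19.5 and 8.90 to 71.0, so all of these overlapped. The T cell sum rests mainly on Cd247, at 266.6 to 590.4 in control and 551.6 to 767.6 in the libraries labelled Eed iKO. Cd68 was the largest part of the macrophage sum, at 146.4 to 731.7 in control and 212.9 to 684.1 in the libraries labelled Eed iKO. None of these 5 lists held a called gene among those that passed the filter on low values. Without the filter, 425 genes were called. The T cell gene Cd8a was among them (4.45, adjusted p = 0.139 by limma), at 2.08, 0 and 0 in control. It was at 21.5, 9.30 and 136.4 in the libraries labelled Eed iKO. Lyz2, Tyrobp, Mpeg1 and Fcer1g were then also called higher in those libraries. Control values were 0 for Lyz2, Tyrobp and Mpeg1 and 0, 0 and 3.63 for Fcer1g. A call in the other direction was thus hardly possible, and nothing is read from their direction. Low genes also fell without a call, such as the neutrophil gene S100a8, at 14.6, 7.58 and 0 in control and 0 in all libraries labelled Eed iKO. The part of leukocytes in the values of the 8 genes was not tested. Cd207 and Tyrobp were both at 0 in all controls and above 0 in all 3 libraries labelled Eed iKO, as the map of immune genes shows.

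**Figure D3:**
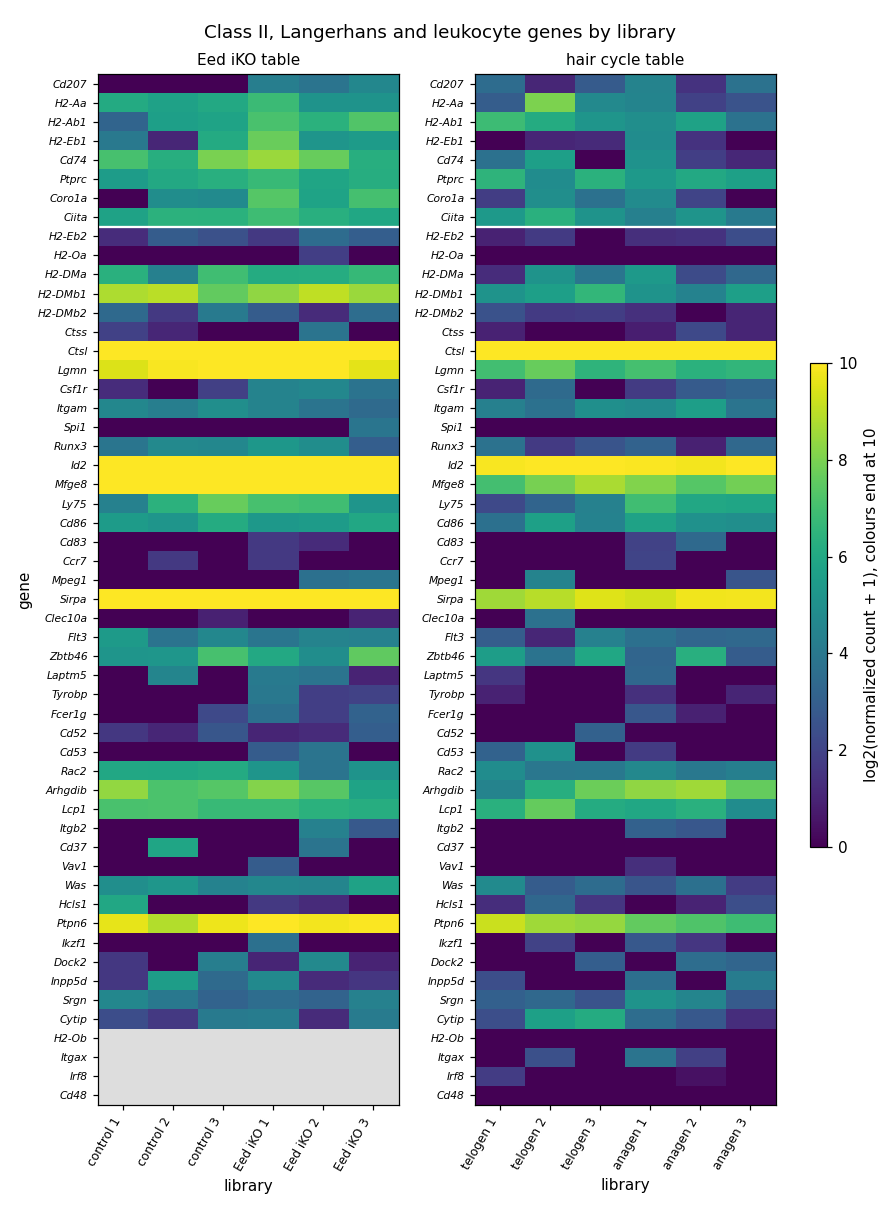
Log2(normalized count + 1) of class II, Langerhans cell and pan-leukocyte genes (rows) in each library (columns) of both tables, with the 8 genes above the white line, grey for genes that the table does not list and colours that end at 10. Cd207 is at 0 in the 3 control libraries and above 0 in the other 9, while Ptprc is above 0 in all 12.

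The melanocyte list gave 1 called gene of 5 tested, the pigment enzyme gene Tyrp1, at 0, 6.5 and 0 in control and 17.2, 25.2 and 16.8 in the libraries labelled Eed iKO (log2 difference 3.38, adjusted p = 0.208 by limma), a call lost without Eed iKO replicate 2 (3.20) and with DESeq2 (3.23). The bulge stem cell list gave none of 12, and its sum was 1520070 to 1866760 in control and 1737390 to 1918030 in the libraries labelled Eed iKO. That sum rests mainly on Krt15 and Krt5. Of the 12 genes, 4 had an unadjusted p under 0.05 by limma, beside 14.7% of all genes, and none an adjusted one. Groups did not overlap for 4 with the libraries labelled Eed iKO higher and 3 with them lower, beside 10.2% and 10% of all genes. Krt14 was higher (log2 difference 0.82, adjusted p = 0.104 by limma) and Tcf7l1 lower (-0.47, adjusted p = 0.231). The fibroblast and endothelial list gave none of 6, with a sum of 2156 to 3903 and 1645 to 2577. Over all lists 3 of 77 tested genes outside the 8 were called (3.9%, beside 1.75% of all genes). Csf1r and Tyrp1 are among the 3, and both passed the filter on low values only through the libraries labelled Eed iKO. The filter therefore favoured their direction, and nothing is read from this count.

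The anagen and telogen libraries had no part in the choice of the genes and were tested. A gene was called beyond a log2 difference of 2 with an unadjusted p under 0.05, which 686 of 13457 genes passed (5.1%; 3.33% higher and 1.77% lower in anagen), and 1556 (11.6%) had an adjusted p under 0.05. Of the 8 genes 7 were tested, since H2-Eb1 missed the filter on low values, and none was called or had an unadjusted p under 0.05, beside 27.3% of all genes. All 8 had overlapping groups, beside 18.1% of all genes whose groups did not overlap with anagen higher and 15.2% with anagen lower. The median log2 difference, anagen minus telogen, was -1.10 over the 7, beside 0.01 over all genes. The depth of these libraries is unknown, and their normalized counts cannot be set against those of the Eed iKO table, which was normalized separately.

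Cd207 was detected in all 6 wild type libraries, with normalized counts of 10.6, 1.11 and 6.32 in telogen and of 21.4, 1.78 and 12.6 in anagen. Its log2 difference was 0.75 (95% interval -1.50 to 2.99, adjusted p = 0.677 by limma). Replicate 2 was lowest in both groups, and the difference was 0.04 without telogen replicate 2 and 1.63 without anagen replicate 2. The langerin transcript was therefore also present in sorted cells with intact Eed.

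H2-Ab1 was at 116.3, 69.8 and 36.5 in telogen and 29.9, 53.4 and 12.5 in anagen, a log2 difference of -1.26 (95% interval -2.68 to 0.16, adjusted p = 0.233 by limma). H2-Aa was at 6.62, 259.6 and 24.9 in telogen and 21.8, 2.84 and 4.92 in anagen, a difference of -2.21 (95% interval -4.79 to 0.36, adjusted p = 0.25). Telogen replicate 2 held most of the H2-Aa signal. Without telogen replicate 1 (-3.35) or anagen replicate 1 (-2.97) H2-Aa was called, and with neither left out it was not. Without telogen replicate 2 its difference was -0.81 (adjusted p = 0.639 by limma; over all alternatives and left-out libraries the adjusted p ran from 0.0736 to 0.639). The ratio of H2-Aa to H2-Ab1 ran from 0.0531 to 3.72 over the 6 libraries, so that these paired chains were uneven between wild type libraries too.

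H2-Eb1 was at 0, 1.11 and 1.26 in telogen and 27.7, 1.78 and 0 in anagen, where anagen replicate 1 held nearly all of it. Cd74 was at 12.3, 48.5 and 0 in telogen and 33.0, 2.59 and 1.14 in anagen, with a log2 difference of -0.44 (95% interval -3.60 to 2.72, adjusted p = 0.869 by limma) whose sign turned without telogen replicate 2 (0.81) or anagen replicate 3 (0.35). The invariant chain was thus near 0 in 3 of the 6 libraries. Ciita was at 41.7, 81.4 and 33.8 in telogen and 19.5, 35.0 and 15.9 in anagen, a difference of -1.10 (95% interval -2.37 to 0.17, adjusted p = 0.245).

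Ptprc was at 89.6, 28.0 and 83.3 in telogen and 40.2, 63.8 and 50.6 in anagen, a log2 difference of -0.23 (95% interval -1.43 to 0.97, adjusted p = 0.821 by limma), with a sign that turned without telogen replicate 1 (0.06) or telogen replicate 3 (0.01). Coro1a was at 2.52, 30.0 and 12.1 in telogen and 27.6, 3.11 and 0 in anagen, a difference of -1.20 (95% interval -3.94 to 1.54, adjusted p = 0.573) that was -0.06 without anagen replicate 3 and -2.48 without anagen replicate 1. Telogen replicate 2 was the highest library for 4 of the 8 genes, telogen replicate 1 for 2 and anagen replicate 1 for 2. Every one of the 7 intervals includes 0, and 6 of them, all but that of Ptprc, also reach past the threshold of 2 in at least 1 direction, so that a difference of that size is not excluded for these 6.

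**Figure D4:**
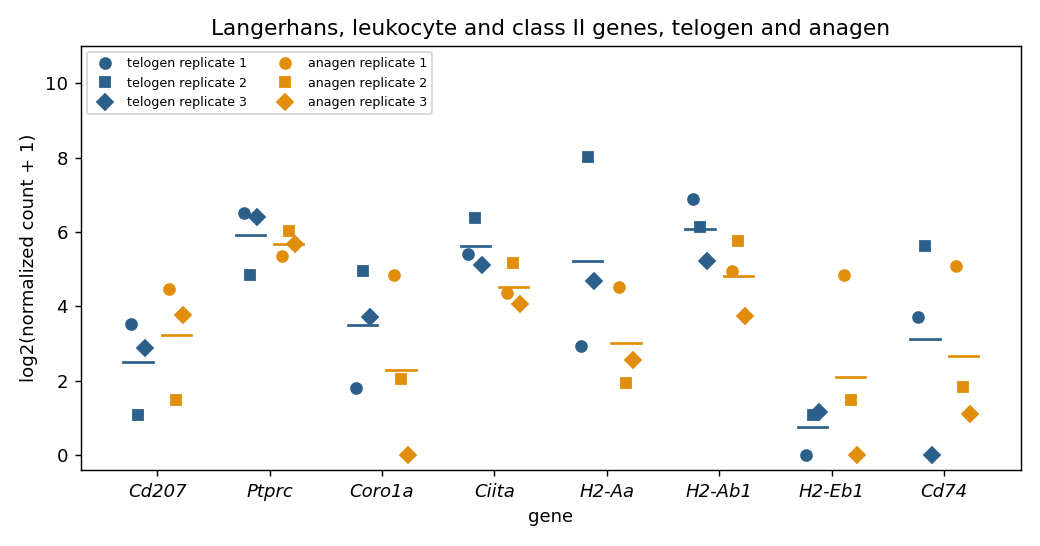
Log2(normalized count + 1) of the 8 genes in the 3 telogen and 3 anagen libraries of wild type mice, with a point for each library, its shape giving the replicate number, and a bar at the mean of each group. The groups overlap for all 8 genes, and Cd207 is above 0 in all 6 libraries.

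**Figure D5:**
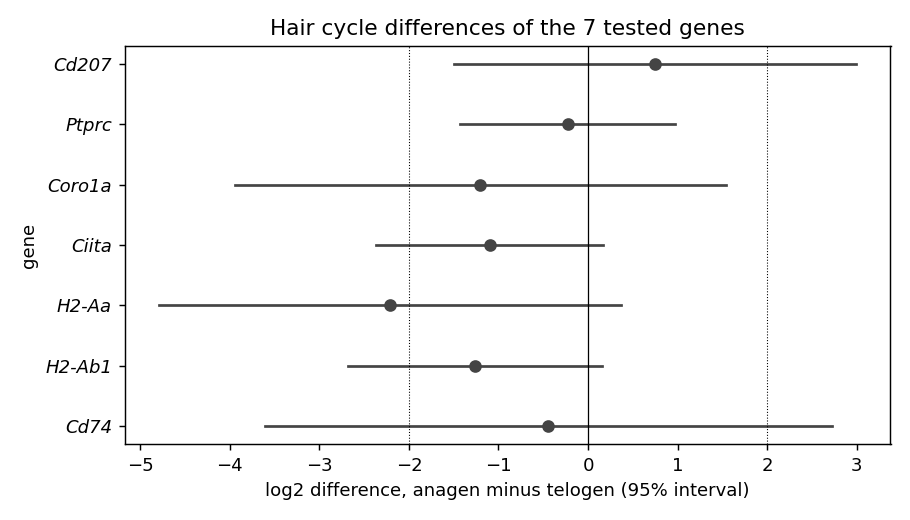
Log2 difference, anagen minus telogen, of the 7 tested genes (points) with its 95% interval (lines), from limma on 3 against 3 libraries; dotted lines mark the threshold of 2. All 7 intervals cross 0, from 0.75 for Cd207 to -2.21 for H2-Aa.

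Of the other class II chain, loading and protease genes, 4 were tested in the hair cycle table and none was called, though Ctsl, a protease that keratinocytes express strongly, had an adjusted p of 0.024 by limma with a log2 difference of 1.15. It was at 1290, 3016 and 2186 in telogen and 3886, 5178 and 4615 in anagen, with no overlap. None of the 7 promoter factors was called. Of 7 tested Langerhans and dendritic cell genes other than Cd207, Ly75, the DEC-205 receptor, was called, at 3.64, 8.29 and 20.1 in telogen and 121.5, 62.7 and 57.4 in anagen (log2 difference 2.99, adjusted p = 0.0172 by limma). Spi1 was at 0 in all 6 libraries, and Csf1r reached at most 10.0. The summed level of the 17 genes was 1579 to 2369 in telogen and 2143 to 2301 in anagen. Of 6 tested pan-leukocyte genes, Arhgdib was called, at 21.0, 76.7 and 212.8 in telogen and 323.0, 375.8 and 195.6 in anagen (2.01, adjusted p = 0.0797), a call lost without telogen replicate 1 (1.16), anagen replicate 1 (1.93) or anagen replicate 2 (1.82). The summed level of the 20 pan-leukocyte genes was 739.4 to 782.2 in telogen and 403.5 to 695.4 in anagen, lower in all 3 anagen libraries. That order rests on the phosphatase gene Ptpn6, which keratinocytes also express, at 586.3, 384.3 and 338.7 in telogen and 191.6, 151.8 and 119.3 in anagen (log2 difference -1.48, adjusted p = 0.0145 by limma). Without it the sum of the other 19 was 184.8, 397.9 and 400.7 in telogen and 503.8, 532.4 and 284.1 in anagen, and the groups overlapped.

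The interferon gamma list gave 1 called gene of 9, the GTPase gene Gbp2, at 46.5, 40.0 and 41.8 in telogen and 4.73, 0.893 and 2.09 in anagen (log2 difference -3.76, adjusted p = 0.00725 by limma). Irf1, a factor induced by interferon gamma, was higher in anagen by 1.70 (adjusted p = 0.0161), so that genes of this list did not share a direction. Dct of the melanocyte list was called higher in anagen (2.51, adjusted p = 0.00187), as was the collagen gene Col1a1 of the fibroblast list (2.06, adjusted p = 0.00928, a call lost without telogen replicate 2, at 1.82, or anagen replicate 3, at 1.76), and Postn of the bulge list was called lower (-2.32, adjusted p = 7.5e-05). Other genes of the melanocyte and fibroblast lists went the other way, with Mitf lower in anagen by limma (-1.85, adjusted p = 0.000254) and Col1a2 at 233.4, 599.7 and 346.1 in telogen and 154.1, 228.7 and 171.7 in anagen (adjusted p = 0.108), and the melanocyte sum was 2882 to 3285 in telogen and 1410 to 1488 in anagen. Among the genes of the sort antigens, Cd34 was lower in anagen (-1.21, adjusted p = 0.00382 by limma) and Itga6 higher (0.97, adjusted p = 0.0144), though neither was called. Of the macrophage list 1 of 10 genes was tested and none called, and the T cell (4 tested), neutrophil (1) and B cell (1) lists gave no call, while no mast cell gene was tested. The summed levels in telogen and anagen were 31.3 to 87.8 and 12.5 to 35.7 for macrophage genes, 672.6 to 993.3 and 584.2 to 772.9 for T cell genes, 28.9 to 62.9 and 21.4 to 44.2 for neutrophil genes, 12.6 to 24.6 and 10.54 to 20.2 for B cell genes and 1.31 to 27.1 and 2.69 to 10.3 for mast cell genes. The T cell sum again rests mainly on Cd247, at 500.3 to 784.6 in telogen and 403.0 to 480.4 in anagen. In all 6 of 62 tested list genes outside the 8 were called (9.68%, beside 5.1% of all genes).

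The genes whose log2 values followed most closely the mean of H2-Aa, H2-Ab1, H2-Eb1 and Cd74 over the 6 libraries of each table were Paqr4 (Pearson r = 0.887 in the Eed iKO table and r = 0.877 in the hair cycle table), Ei24 (0.854 and 0.884), Polrmt (0.926 and 0.82), Micu2 (0.811 and 0.889) and Snrpc (0.849 and 0.809), out of 13359 genes tested in both tables. None of these 5 is on any list used here. Of the other genes followed here, Coro1a ranked 77th by the lower of its 2 values (0.613 and 0.87) and Ciita 202nd (0.622 and 0.518). Cd207 (0.615 and -0.161) ranked 5624th and Ptprc (0.809 and -0.655) 11683rd. The genes share their libraries, and each correlation rests on 6 libraries, so these values describe likeness only.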

How the data were processed

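RNA of sorted HFSCs was sequenced by the authors in 12 libraries, 3 in each of 4 groups, from 10 ng of RNA with paired reads of 150 nt, and quantified with Kallisto 0.42.5 on Gencode vM20 (DESeq2 3.11 is the version in the submitters' processing notes). The deposited signal is a gene's count in a library after division by its DESeq2 size factor, and the deposited log2 fold changes, p-values and test score (stat) of the authors were not used. Members and lists were chosen with earlier results of these data known.

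Each table was tested alone with limma 3.58.1 (R 4.3.3, trend) on log2(value + 1) after filterByExpr at a count minimum of 10, with Benjamini-Hochberg adjustment over all genes tested. The design allowed for counts, but neither table holds raw ones. Named genes are the 8 members, called list genes (at most 3 per direction), the 5 genes most like the class II mean, the sort genes and Eed; other list genes and H2-DMb1 were named after their values were seen. Values were whole multiples of 1 read for 100% of genes in the Eed iKO table (tolerance 0.01), which gave 33269583 to 57063586 reads per library, and for at most 9.15% in the hair cycle table, where depth is unknown. edgeR 4.0.16 and DESeq2 1.42.0 were run on the recovered reads as alternatives. Levels per length used the longest coding transcript in GENCODE vM21 (GRCm38), joined by identifier without version. Counting intervals cover counting error only. Functions were tested on simulated data. Deviations from group means of same-numbered libraries had r of 0.039, 0.068 and 0.19 over genes in the Eed iKO table. In the hair cycle table r was -0.035, -0.071 and -0.029. These values are low, so replicate numbers were not used to pair samples, though all 3 are above 0 in the Eed iKO table. Where litters are shared between libraries is not given in the sources used here.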

Additional observations from a re-analysis of the deposited data

How the results depend on the processing

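Calls rest on small groups and low counts, and leaving out a library moved most values of the 8 genes more than any change of scaling did. In the Eed iKO comparison the 263 called genes became 425 without the filter on low values, 4 at an adjusted p under 0.05 without a fold threshold, 243 with edgeR, 255 with DESeq2 (5 and 673 at an adjusted p under 0.05), and 217 to 449 with 1 library left out, with 410 without control replicate 3 and 449 without Eed iKO replicate 3. The 3 called list genes became 7 without the filter, 0 at an adjusted p under 0.05 by limma (no list gene with edgeR and 2 with DESeq2 reached that level) and 3 to 5 with 1 library left out. With a replicate block in limma, the counts were 331 genes (424 at an adjusted p under 0.05) and 4 list genes (2 at that level). Whether the replicate numbers mark shared litters or batches is not given, so the block is an alternative only. In the hair cycle the block gave 696 genes, 6 list genes and 0 of the 7 tested genes of the class II and Langerhans set. At an adjusted p under 0.05 the 686 hair cycle genes became 1556 and the 6 list genes 12, and leaving out 1 library gave 689 to 854 and 6 to 9. The 0 called of the 7 became 1 (H2-Aa) without telogen replicate 1 or without anagen replicate 1, and otherwise stayed at 0. The hair cycle difference of Cd74 turned to 0.29 with a pseudocount of 0.1 and ran from -2.001 to 0.81 (0.81 without telogen replicate 2, 0.35 without anagen replicate 3) over left-out libraries, that of Coro1a from -2.48 to -0.06, that of Cd207 from 0.04 to 1.63, that of H2-Aa from -3.35 to -0.81 and that of Ptprc from -0.76 to 0.06 (0.062 without telogen replicate 1, 0.011 without telogen replicate 3). In the Eed iKO table the log2 difference of Cd207, whose control libraries are at 0, was 4.24 at a pseudocount of 1, 7.49 at 0.1, 7.26 with edgeR and 6.83 with DESeq2. Over left-out libraries it ran from 4.05 to 4.45, that of H2-Ab1 from 1.23 to 2.52 and that of H2-Aa from -0.80 to 0.03. The cause of these shifts was not tested. Cd207 held 0 reads in every control and from 10 to 24 in the Eed iKO group of this table. Within that group its coefficient of variation was 28.4%, beside a counting error of 24.8%. The Cd207 difference rests on 3 libraries per group and was not tested, because the gene was chosen on this contrast.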
